A study of Mus musculus with 4 samples.

Results

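Pde4dip and 9 genes of cyclic nucleotide phosphodiesterases (Pde4a, Pde4b, Pde4d, Pde10a, Pde1a, Pde1c, Pde3a, Pde7b and Pde8a) were followed through 2 pools of piggyBac gene trap insertions in mouse cells. They are 10 genes, picked by name, beside 5614 genes that have reads in at least 1 pool, and 9 of the 10 are among those 5614. The group was drawn up because Pde4dip was known to have many reads, so its reads and those of its companions are given as a description and carry no test.

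The cells were mouse haploid neural stem cell-like cells of 129Sv background, differentiated from haploid embryonic stem cells. Haploid cells hold a single chromosome set, so an insertion that breaks a gene leaves no intact copy. All 4 samples share the same protocol: embryoid bodies for 3 days, then N2B27 medium with FGF2 and EGF at 20 ng/ml each, 300 nM LDN193189 (a BMP receptor inhibitor), 10 µM SB431542 (an activin and TGF-beta receptor inhibitor) and a ROCK inhibitor, which was Y-27632, Thiazovivin or both. Cells were transfected with 20 µg of a piggyBac gene trapping plasmid and 10 µg of a transposase plasmid, G418 selected those with a trapped gene, and splinkerette PCR amplified the transposon-genome junctions for sequencing. Library 2 and library 1 each pool 2 samples in 1 table, the labels name no treatment that differs between them, and no value has a replicate. The tables give reads per gene, without insertion sites, strands or cell numbers. No RNA was measured, so the cell type could not be checked against markers.

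Library 2 held 48750 nonredundant and 1300140 redundant reads in 3168 genes, and library 1 held 55442 and 877870 in 4184 genes. Nonredundant reads, the smaller of both deposited counts, are used throughout unless redundant reads are named. The reads are PCR products that carry no molecular identifiers. All 95% intervals are therefore exact Clopper-Pearson intervals for counting error alone, and they compare 2 pools of reads. A gene that is not listed has 0 reads. For folds it was given a fixed 3 reads of the total, a share of 0.00615% in library 2 and 0.00541% in library 1. The exact upper limits for 0 reads are higher, 0.00757% and 0.00665%, and would give smaller folds.

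Cyclic AMP and cyclic GMP carry signals from receptors to kinases and channels inside the cell. Phosphodiesterases end these signals by hydrolysing the cyclic nucleotide, and their subfamilies differ in whether they cleave cyclic AMP, cyclic GMP or both. Where an enzyme is held in the cell shapes which signal it ends. Pde4dip encodes myomegalin, a large coiled-coil protein of the centrosome and Golgi apparatus that binds PDE4 enzymes and is no phosphodiesterase itself.

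Pde4dip had 438 reads in library 2 and 6 reads in library 1. It was the gene with the 16th most reads in library 2, where it took 0.898% of the reads (interval 0.817 to 0.986), and the 614th in library 1, where it took 0.0108% (interval 0.00397 to 0.0236). Its share of reads was 83.0 times as high in library 2 as in library 1 (interval 37.8 to 227), a log2 ratio of 6.38. Redundant reads numbered 4995 in library 2 and 11 in library 1. In library 2 the gene just above it was Dock9, a guanine nucleotide exchange factor, with 460 reads, and the gene just below was the ubiquitin ligase gene Nedd4 with 420. Both had few reads in library 1 (2 in Dock9 and 3 in Nedd4).

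Pde4dip was listed with 3 RefSeq transcripts in both libraries, and its reads were given per gene, not per transcript. RefSeq lists 2 start windows of the gene in GRCm38.p6, each of 250 bases before and 50 bases after a transcript start. They are printed because Pde4dip holds most of the reads of the group, beside the one window of Pde1a, the member without reads, that has most copies of TTAA. TTAA is the tetranucleotide at which piggyBac inserts, it is its own reverse complement, and capitals mark it.
Pde4dip, chr3:97767965-97768264, minus strand: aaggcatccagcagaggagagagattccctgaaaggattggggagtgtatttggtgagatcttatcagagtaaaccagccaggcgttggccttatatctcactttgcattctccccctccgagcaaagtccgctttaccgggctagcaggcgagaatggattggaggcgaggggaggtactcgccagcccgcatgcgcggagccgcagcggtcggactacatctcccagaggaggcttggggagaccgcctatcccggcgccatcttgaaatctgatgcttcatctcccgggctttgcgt
Pde4dip, chr3:97888658-97888957, minus strand: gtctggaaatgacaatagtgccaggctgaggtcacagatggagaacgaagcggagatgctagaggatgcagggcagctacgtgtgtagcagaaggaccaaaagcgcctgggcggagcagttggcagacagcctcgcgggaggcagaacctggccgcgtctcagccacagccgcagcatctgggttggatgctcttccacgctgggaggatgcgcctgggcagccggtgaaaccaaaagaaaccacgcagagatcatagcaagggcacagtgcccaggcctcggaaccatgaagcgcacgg
Pde1a, chr2:80129363-80129662, minus strand: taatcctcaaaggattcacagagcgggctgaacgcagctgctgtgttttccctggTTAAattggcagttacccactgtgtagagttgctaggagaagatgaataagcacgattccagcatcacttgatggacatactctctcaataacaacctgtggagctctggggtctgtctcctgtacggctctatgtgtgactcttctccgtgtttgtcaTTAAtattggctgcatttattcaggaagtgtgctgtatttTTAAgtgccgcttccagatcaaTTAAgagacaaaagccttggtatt
Both Pde4dip windows hold 0 copies of TTAA and the Pde1a window holds 4. Of the 21 windows of 9 members (RefSeq's window table has none for Pde3a), 11 or 52.4% hold the motif, and 52.4% of all 32851 RefSeq windows of this length do. The windows cover a small part of each gene, and the tables do not say where in a gene its reads lie.

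Among the PDE4 enzymes, which hydrolyse cyclic AMP and are the partners of myomegalin, Pde4b and Pde4d also had more nonredundant reads in library 2. Pde4b had 53 reads in library 2 against 3 in library 1, a ratio of the shares of 20.1 (interval 6.51 to 101). Pde4d, the PDE4 gene for which binding to myomegalin was described, had 15 reads in library 2 and 2 in library 1, a ratio of 8.53 (interval 1.98 to 76.9). Pde4a had 2 reads in library 2 and 0 in library 1. The intervals of Pde4b and Pde4d lie above 1, but the redundant reads of Pde4d were nearly equal, 45 in library 2 and 46 in library 1, and their log2 ratio was -0.60 against 3.09 for nonredundant reads. The redundant reads of Pde4b numbered 180 in library 2 and 37 in library 1, a log2 ratio of 1.72 against 4.33. Pde4c, the remaining PDE4 gene, was not listed in either library, which brings the PDE4 genes to 70 reads in library 2 and 5 in library 1.

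Of the other members, Pde10a was the one with 10 or more reads in both libraries. Pde10a encodes an enzyme for cyclic AMP and cyclic GMP that is best known from striatal neurons. It had 34 reads in library 2 and 49 in library 1, a ratio of 0.789 (interval 0.494 to 1.25) that includes 1, and it was the member with most reads in library 1. Pde1c, a calcium- and calmodulin-activated enzyme, had 22 reads in library 2 and 2 in library 1, a ratio of 12.5 (interval 3.08 to 110). Pde7b, a cyclic AMP enzyme, had 3 reads in library 2 and 5 in library 1, a ratio of 0.682 (interval 0.106 to 3.51). These counts leave the direction of Pde7b unsettled.

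The members Pde8a, Pde3a and Pde4a were listed in library 2 alone, each with few reads. Pde8a, a cyclic AMP enzyme of high affinity, had 3 reads, and Pde3a, a cyclic AMP enzyme inhibited by cyclic GMP, had 2, as did Pde4a above. A count of 0 in library 1 was set to 3 reads for folds, so no fold is given for them. Pde1a, the close relative of Pde1c, was not listed in either library.

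**Figure D1:**
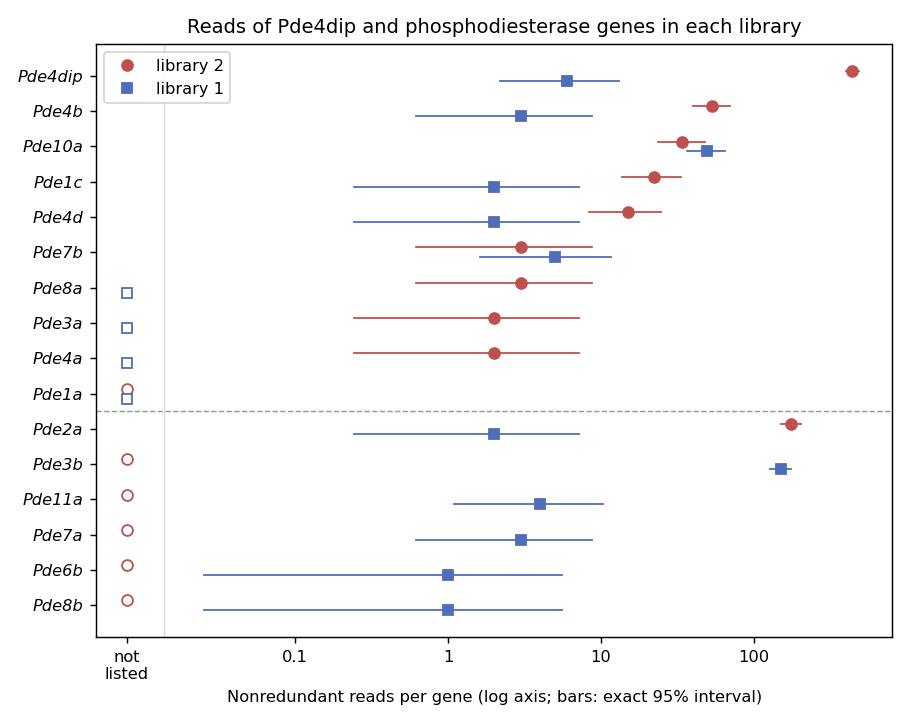
Nonredundant reads (log axis) of the 10 members, above the dashed line, and of the 6 other phosphodiesterase genes with reads, below it, with circles for library 2, squares for library 1, bars for exact 95% intervals, and open symbols at the left for genes not listed. Pde4dip stands at 438 reads in library 2 and 6 in library 1, while Pde10a has 34 and 49.

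In library 2 the order of the members by reads was Pde4dip, Pde4b, Pde10a, Pde1c and Pde4d, then Pde7b and Pde8a with equal counts, then Pde3a and Pde4a with equal counts. Pde4dip was picked for its reads in this library, so its place at the head is no result. Among the rest, the interval of Pde4b (0.109% of reads, 0.0814 to 0.142) overlaps that of Pde10a (0.0697%, 0.0483 to 0.0974), which overlaps that of Pde1c (0.0451%, 0.0283 to 0.0683), and this one overlaps that of Pde4d (0.0308%, 0.0172 to 0.0507). In library 1 the order was Pde10a, Pde4dip, Pde7b and Pde4b, then Pde4d and Pde1c with equal counts. There the interval of Pde10a (0.0884%, 0.0654 to 0.117) lies above that of Pde4dip, and the intervals from Pde4dip down overlap their neighbours.

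Together the members had 572 reads in library 2, or 1.17% of it (interval 1.08 to 1.27), and 67 reads in library 1, or 0.121% (interval 0.0937 to 0.153). Pde4dip made up 76.6% of the members' reads in library 2 and 8.96% in library 1. Without Pde4dip the other 9 had 134 reads in library 2 and 61 in library 1, a ratio of the shares of 2.50 (interval 1.83 to 3.44). These 9 were also picked with their reads known, so their ratio is a description only. It was smaller with redundant reads, of which they held 0.0352% in library 2 and 0.0197% in library 1. It was also smaller over all 24 phosphodiesterase genes, which held 0.632% and 0.399% of the nonredundant reads. Most of the group's excess in library 2 was of Pde4dip, which follows from picking the group for the reads of that gene and is no result.

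Of the 10 members, 9 were listed in library 2 and 6 in library 1, where 12.1% and 15.9% of 26220 reference genes were listed. With 10 or more reads there were 5 members in library 2 (Pde4dip, Pde4b, Pde10a, Pde1c and Pde4d) and 1 in library 1 (Pde10a), where 1.12% and 1.90% of reference genes had as many. The members' median was 9 reads in library 2 and 2 in library 1, against 0 in both over all reference genes and 1 in both over the listed genes. Because the members were picked with their reads known, these shares say nothing about phosphodiesterases as a class. Among the 6 members listed in both libraries, 3 (Pde4dip, Pde4b and Pde1c) had a share of reads at least 10 times as high in library 2, and none were 10 times lower. Of all 1738 genes listed in both libraries, 7.59% were at least 10 times higher in library 2 and 9.78% at least 10 times lower, and the median log2 ratio was 0.19. A gene with few reads in library 2 cannot be 10 times higher there, even against 1 read in library 1. Of the 1738, 440 had 1 read in each library. The 7.59% is therefore no like measure for members with many reads. Most of the shared genes with 100 or more reads in library 2 were at least 10 times higher there, so Pde4dip was not unusual among them. Dock9 and Nedd4, next to Pde4dip in rank, had 460 and 420 reads in library 2 and 2 and 3 in library 1.

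**Figure D2:**
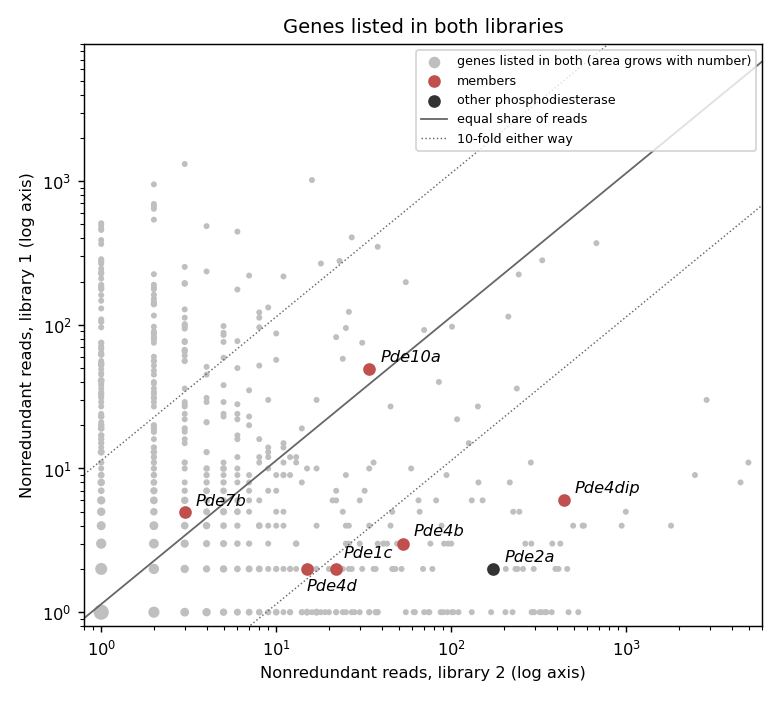
Nonredundant reads in library 2 (x, log axis) against library 1 (y, log axis) for the 1738 genes listed in both (grey), with the 6 members listed in both in red and Pde2a in black; the solid line marks equal shares of reads and the dotted lines a 10-fold difference. Pde4dip, Pde4b, Pde1c and Pde2a lie beyond the 10-fold line towards library 2, and Pde10a and Pde7b lie near the line of equality.

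The 15 phosphodiesterase genes outside the group were taken by name, whether or not their product is catalytic. They include 2 with more reads than any member other than Pde4dip. Pde2a, a cyclic GMP-stimulated enzyme, had 174 reads in library 2 and 2 in library 1, a ratio of the shares of 98.9 (interval 27.0 to 823). Pde3b, which in fat and liver cells lowers cyclic AMP in response to insulin, had 0 reads in library 2 and 149 in library 1. With 3 reads assumed in library 2, its share was 43.7-fold lower there. Pde3b and Pde2a leaned to opposite libraries. The rest of the 15 had few reads: Pde11a had 4, Pde7a 3, and Pde8b and the photoreceptor gene Pde6b 1 each, all in library 1 alone. The other 9 (Pde1b, Pde4c, Pde5a, Pde6a, Pde6c, Pde6d, Pde6g, Pde6h and Pde9a) were not listed.

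All 24 genes with a phosphodiesterase name were counted, catalytic or not, and Pde4dip was left out. Of the 24, 9 (37.5%) were listed in library 2, 11 (45.8%) in library 1 and 14 (58.3%) in either. These shares stand against 12.1%, 15.9% and 21.4% of all reference genes. The reads of the 24 summed to 308 in library 2, or 0.632% of it, and to 221 in library 1, or 0.399%. Of these 24, 5 (20.8%) had 10 or more reads in library 2 (Pde2a, Pde4b, Pde10a, Pde1c and Pde4d) and 2 (8.33%) in library 1 (Pde3b and Pde10a), against 1.12% and 1.90% of all reference genes. The median over the 24 genes was 0 reads in each library. Pde10a was the one phosphodiesterase gene with 10 or more reads in both.

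Most of the members are long genes, and long genes were listed far more often. Lengths are those of GRCm38.p6, while the authors' build is mm9. Of the 10 members, 9 fall in the longest of 10 equal classes of reference genes (97.0 kb and over), from Pde8a at 121 kb to Pde4d at 1302 kb, and Pde4a (47.5 kb) falls in class 8. Of the 12 phosphodiesterase genes in that class, 7 were listed in library 2 and 8 in library 1, which makes 58.3% and 66.7%, and 10 (83.3%) in either. Of all genes in the class, 52.2% were listed in library 2 and 65.2% in library 1, and 75.5% in either. The listed shares of the phosphodiesterase genes are near those of all genes in the class. The class runs up to 2390 kb, and lengths within it were not matched. With 10 or more reads there were 4 of the 12 (33.3%) in library 2 and 2 (16.7%) in library 1, against 6.25% and 11.4% of all genes in the class. Of the 12 shorter phosphodiesterase genes, 2 were listed in library 2 and 3 in library 1. They lie in classes 4 to 9, with 5 in class 9 and 3 in class 8. Of all genes in class 9, 24.98% were listed in library 2 and 35.6% in library 1, in class 8 these shares were 16.8% and 21.0%, and in class 4 they were 2.02% and 3.85%.

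**Figure D3:**
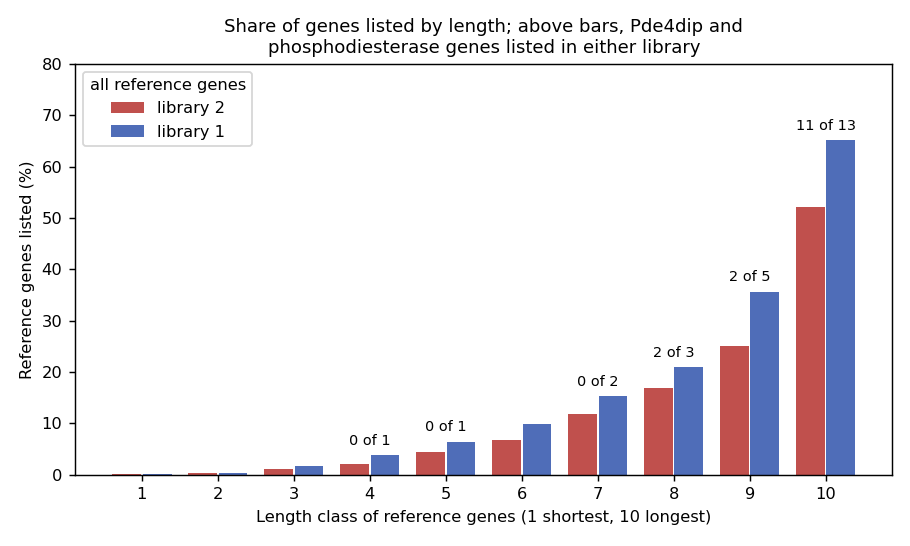
Share of all reference genes listed (y, percent) in each of 10 classes of genes by length (x), in red for library 2 and blue for library 1, with the number of phosphodiesterase genes and Pde4dip listed in either library written above the bars. The share reached 52.2% in library 2 and 65.2% in library 1 in the longest class, where 11 of 13 of these genes were listed.

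Length did not order the members by reads. Pde4d, the longest member, had 1.15 reads per 100 kb in library 2 and 0.154 in library 1. Pde4dip, at 199 kb, had 220 reads per 100 kb in library 2 and 3.02 in library 1. The other members had between 0.776 (Pde3a) and 10.2 (Pde4b) reads per 100 kb in library 2 where listed, and Pde10a had 10.6 in library 1. Per length, Pde2a with 191 reads per 100 kb in library 2 and Pde3b with 121 in library 1 were the genes of the family nearest to Pde4dip. Pde1a, at 362 kb, was longer than Pde4dip and had no reads.

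Genes that overlap a member in the reference annotation, among them the miRNA gene Mir7225 within Pde4dip, had no reads of their own in either table. Most of these overlapping genes have no curated transcript. All 3167 matched genes of library 2 and 4181 of the 4182 of library 1 do have one. The absence of most overlapping genes was thus nearly fixed beforehand and does not show where reads lie. The curated genes on both sides of Pde4dip were nearly empty. Prkab2, a subunit gene of AMP-activated kinase, was not listed, and Sec22b, a SNARE of the secretory pathway, had 0 reads in library 2 and 1 in library 1. The reads of Pde4dip in library 2 had no counterpart in either neighbouring gene. Only 12.1% of all reference genes were listed in library 2, so empty neighbours say little about these reads.

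The number of redundant reads per nonredundant read differed widely among the members. In library 2 it was 11.4 for Pde4dip, and the median over the 78 genes with 100 or more reads was 11.2 (quartiles 7.49 and 16.2), so Pde4dip lay in the middle of genes with like counts. Pde4b at 3.40, Pde10a at 3.24, Pde4d at 3.00 and Pde1c at 4.77 lay between the quartiles of the 294 genes with 10 or more reads (2.42 and 8.33). In library 1 Pde10a had 1.31, below the lower quartile of 1.86 over 499 such genes, while Pde4d had 23.0 and Pde4b 12.3 from only 2 and 3 nonredundant reads. For Pde10a the redundant reads numbered 110 in library 2 and 64 in library 1, the opposite order to its nonredundant reads.

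**Figure D4:**
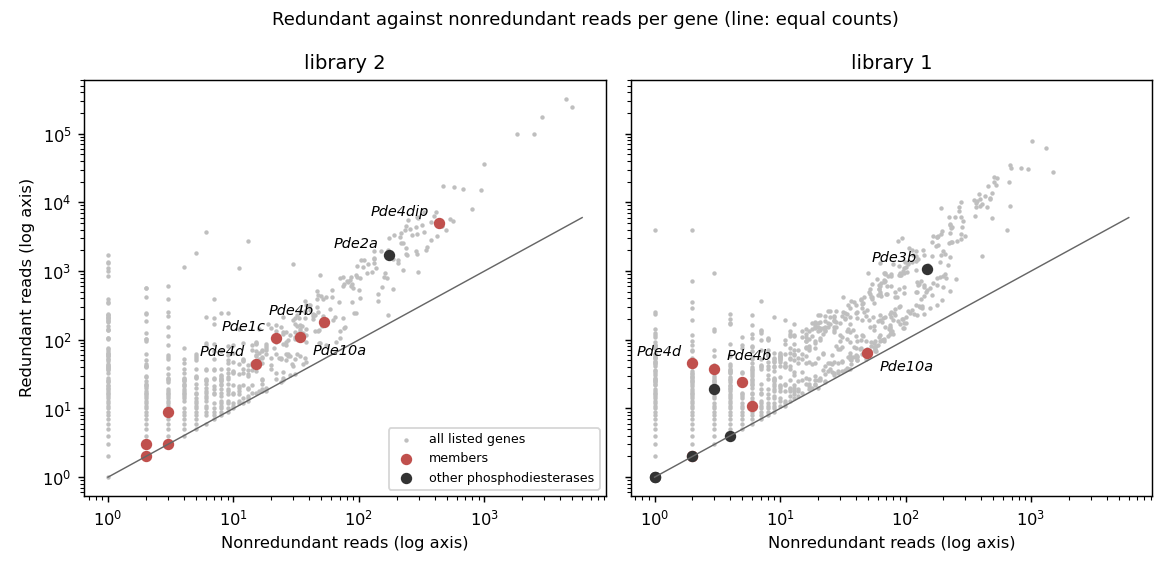
Redundant reads (y, log axis) against nonredundant reads (x, log axis) for every listed gene, library 2 on the left and library 1 on the right, with members in red, other phosphodiesterases in black, all genes in grey and a line at equal counts. Pde4dip (438 and 4995 reads) and Pde2a (174 and 1725) lie within the grey band of library 2, and Pde10a (49 and 64) lies close to the line in library 1.

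Cyclases make the cyclic nucleotides, and G protein alpha subunits regulate the adenylyl cyclases. Of 21 genes of both kinds, 6 were listed in library 2 and 10 in library 1, with 29 reads in library 2 and 34 in library 1. The soluble guanylyl cyclase subunit gene Gucy1a2 had 11 reads in library 2 and 9 in library 1, and the adenylyl cyclase gene Adcy1 had 11 and 1. Gnas, which encodes the stimulatory G protein alpha subunit, had 8 reads in library 1 alone. Adcy2 had 2 reads in library 2 and 4 in library 1, and Adcy3 had 4 in library 1 alone. None of the 21 reached 100 reads.

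Genes that read the signal were led by a single kinase. Of 33 effector genes, 7 were listed in library 2 and 13 in library 1, with 25 reads in library 2 and 241 in library 1. Prkg1, the cyclic GMP-dependent kinase gene, had 7 reads in library 2 and 220 in library 1, a ratio of the shares of 0.0362 (interval 0.0144 to 0.0758). It thus leaned to the library in which Pde4dip and Pde2a were low, and at 1201 kb it is nearly as long as Pde4d. The coactivator gene Crebbp had 11 reads in library 2 alone, and Rapgef4, an exchange factor activated by cyclic AMP, had 2 in library 2 and 4 in library 1.

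Anchoring genes hold kinases and phosphodiesterases in place, as myomegalin does. Of 24 such genes, 9 were listed in library 2 and 13 in library 1, with 21 and 182 nonredundant reads. Their redundant reads were in the opposite order, 3754 or 0.289% of library 2 and 2037 or 0.232% of library 1, and most of those in library 2 were of the single gene Lrba. Arfgef2, an exchange factor for ARF GTPases that also binds the cyclic AMP-dependent kinase, had 1 read in library 2 and 62 in library 1, the dendritic protein gene Map2 had 1 and 41, and Nbea, a neuronal trafficking protein, had 6 and 28. Akap6, the anchor of the nuclear envelope in muscle, had 37 reads in library 1 alone, at least 10.8-fold lower in library 2. Lrba, a relative of Nbea, had 6 nonredundant reads in library 2 and 4 in library 1, but 3732 redundant reads in library 2, which makes 622 per nonredundant read and rank 30 among redundant counts. None of the 24 had 10 or more nonredundant reads in library 2, against 4 in library 1.

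Myomegalin works at the centrosome and Golgi apparatus with other scaffold and microtubule proteins. Of 19 genes of such partners, 2 were listed in library 2 and 7 in library 1, with 2 and 25 reads. Cdk5rap2, the close relative of Pde4dip that recruits gamma-tubulin, had 0 reads in library 2 and 10 in library 1, and the pericentrin gene Pcnt had 0 and 9. The microtubule minus-end gene Camsap1 had 1 read in library 2 and 2 in library 1. The paralogs Pde4dip and Cdk5rap2 are of like length, 199 and 194 kb.

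These 4 related lists can be set beside all reference genes, of which 12.1% were listed in library 2 and 15.9% in library 1 and whose median length was 14.3 kb. The cyclase and G protein list (median length 80.4 kb) had 28.6% of its genes in library 2 and 47.6% in library 1. The effector list (58.3 kb) had 21.2% and 39.4%, the anchor list (68.4 kb) 37.5% and 54.2%, and the list of centrosome and Golgi partners (56.7 kb) 10.5% and 36.8%. All 4 lists are of longer genes than the median reference gene. The median gene of each list had 0 reads in both libraries, except in the anchor list, where it had 1 read in library 1.

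The genes most like Pde4dip were sought by the distance of 4 values per gene (log2 of the share of nonredundant and of redundant reads in both libraries) over the 1737 other genes listed in both. The nearest was Tmtc1, a transmembrane protein of the endoplasmic reticulum, with 287 reads in library 2 and 3 in library 1 (distance 1.35). It was followed by Cadps, a vesicle priming factor (245 and 5 reads), the calmodulin-dependent kinase gene Camk1d (216 and 8), the presynaptic scaffold gene Pclo (265 and 3) and the collagen-processing protease gene Adamts2 (563 and 4). Their distances from Pde4dip ran between 1.44 and 1.62 on the log2 scale. All 5 had 216 or more reads in library 2 and 8 or fewer in library 1, which follows from choosing them by these same counts.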

How the data were processed

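The deposited tables hold, per the file headers, nonredundant and redundant read counts per gene symbol with its RefSeq transcripts. Both are raw counts by the authors, whole numbers with no normalization, and each table pools 2 samples, as the labels tie both samples to it. CASAVA, BWA and build mm9 are named, with no versions, per the submitters' processing notes. How reads were assigned to genes, filtered or called nonredundant is not given in the sources used here. Either could change every count.

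Shares of reads and their ratios, library 2 over library 1, were computed in Python 3.11.15 with pandas 2.3.3 and scipy 1.17.1. Intervals of ratios come from the exact interval of library 2's share of a gene's reads. The ratio step was run on simulated independent counts for genes with 10 or more reads in library 1. Most members had fewer there, and PCR products need not be independent counts. The simulation therefore checks the calculation alone, not the intervals for these data. No test was run, since each library is 1 table. Symbols were matched through transcripts to RefSeq genes of GRCm38.p6 (3167 of 3168 genes in library 2, 4182 of 4184 in library 1), and 26220 genes with curated transcripts, in 10 classes by length, formed the background. Start windows are from RefSeq.

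Named genes were all members, every other listed phosphodiesterase, up to 5 members of each related list by summed reads, the 5 genes most like Pde4dip and its neighbours in rank. Ties at the last place were left out. One gene that the rule names is not reported here by name and stays in the counts. Members and lists were chosen with earlier results of these data known. Alternatives were redundant reads, read minima, a pseudocount of 1 read, totals without the 10 leading genes, the group without Pde4dip, and protein coding genes only.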

Additional observations from a re-analysis of the deposited data

How the results depend on the processing

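No paired analysis was possible because each table pools its 2 samples, and for the same reason no sample could be left out. Precision is limited by the small counts of most members (2 to 6 reads in library 1 for 5 of the 6 listed there). With redundant reads, Pde4dip held 0.384% of library 2 and 0.00125% of library 1, its log2 ratio (library 2 over library 1) was 8.26, and the 10 members held 0.419% of library 2 and 0.0210% of library 1. The log2 ratio then changed sign for Pde4d (-0.60) and Pde10a (0.21), and for Pde10a also with totals that leave out each library's 10 leading genes (0.20), where Pde4dip held 1.56% of library 2. The cause was not tested. Of the members' shares, ranks and ratios, 13 stayed within their intervals (ranks within 1.5 times) with redundant reads, 23 did not, and 2 changed sign. Without Pde4dip the members held 0.275% of library 2. At 10 or more reads, 5 members were in library 2 and 1 in library 1, and 1 other phosphodiesterase was in library 1. A pseudocount of 1 read kept all 6 ratios of members within their intervals, and minima of 2 reads, of either kind, kept all 4 counts of listed genes within 1.5 times. With protein coding genes alone, 15.0% of genes were listed in library 2 and 19.9% in library 1.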
